A study of Mus musculus with 2 samples.

Results

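The 10 genes described here are antioxidant and metallothionein genes: Nqo1, Gclm, Gclc, Srxn1, Txnrd1, Prdx1, Sod2, Gpx3, Mt1 and Mt2. They were taken by gene symbol from the 27998 genes listed for each library, and all 10 were found. The libraries are 1 labelled control and 1 labelled fibrosis, each made from the digested lung of 1 male C57Bl/6J mouse aged 3 months. The protocol given for both samples names titanium dioxide and crocidolite asbestos at 100 µg into the trachea with killing at 14 days, and the labels do not say which mouse received which particle. With 1 mouse per group there is no replicate, so every interval below covers counting error only and no test of the condition was possible. A difference between the libraries cannot be told apart from one between 2 mice or 2 preparations.

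Cells meet oxidants with overlapping systems. Glutathione is made from cysteine by glutamate-cysteine ligase, peroxiredoxins and glutathione peroxidases reduce peroxides, thioredoxin reductase recycles thioredoxin, and superoxide dismutase removes superoxide. Many of these genes are switched on by the transcription factor NRF2 through antioxidant response elements in their promoters. Metallothioneins are small cysteine-rich proteins that bind zinc and copper, and their genes respond to zinc through the factor MTF1, which binds metal response elements, and also to glucocorticoids and oxidants. Epithelial cells and alveolar macrophages are the lung cells that first meet inhaled particles.

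The control library kept 7510 of 8280 deposited cells at a median of 3706 unique molecular identifiers (UMIs) per cell, and the fibrosis library kept 6786 of 7173 at a median of 4286.5. The libraries shared 89 barcodes. Cells were clustered without the 10 genes and clusters were named from marker genes, so a class is called "-like". Of 20 named classes, 15 held at least 50 cells in each library and were compared. Their cell numbers ran from 53 (fibroblast-like) to 1549 (classical monocyte-like) in the control library and from 71 (fibroblast-like) to 1625 (AT2-like) in the fibrosis library. Clusters that met the markers of no single type held 384 control and 701 fibrosis cells, and clusters with the markers of 2 lineages held 46 and 156. The class names were rebuilt from the counts, since no annotation by the authors was used here.

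A level is given as CPM, the gene's count as a rate per 1000000 UMIs of the class in that library. A gene was called higher or lower in a class when it had at least 20 UMIs over both libraries, its ratio was at least 2-fold and the 95% counting interval of the ratio did not hold 1. Of 150 pairs of a member and a compared class, 116 had 20 UMIs. Of these, 18 (15.5%) were called higher in the fibrosis library, where 3.32% of 115692 pairs over all genes were. The lower calls numbered 2 (1.72%), where 2.00% of all pairs were called lower. The higher calls belonged to Gclc (5 classes), Gclm (4), Mt1 (4), Mt2 (4) and Gpx3 (1). Nqo1, Srxn1, Txnrd1, Prdx1 and Sod2 had no call in either direction.

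By class, 3 of 8 tested members were called higher in B cell-like cells, where 3.26% of the class's 7631 tested genes were, and 3 of 10 in club-like cells (5.83% of its genes). In interstitial macrophage-like cells 2 of 9 members were called higher (2.71% of genes), in endothelial cell-like cells 2 of 8 (5.22%) and in proliferating cells 2 of 7 (3.92%). A single member was called higher in AT2-like (2.85% of genes), alveolar macrophage-like (2.36%), classical monocyte-like (3.04%), nonclassical monocyte-like (2.26%), type 2 dendritic cell-like (3.87%) and T cell-like cells (1.84%). The lower calls were in fibroblast-like (2.79%) and T cell-like cells (1.88%).

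**Figure D1:**
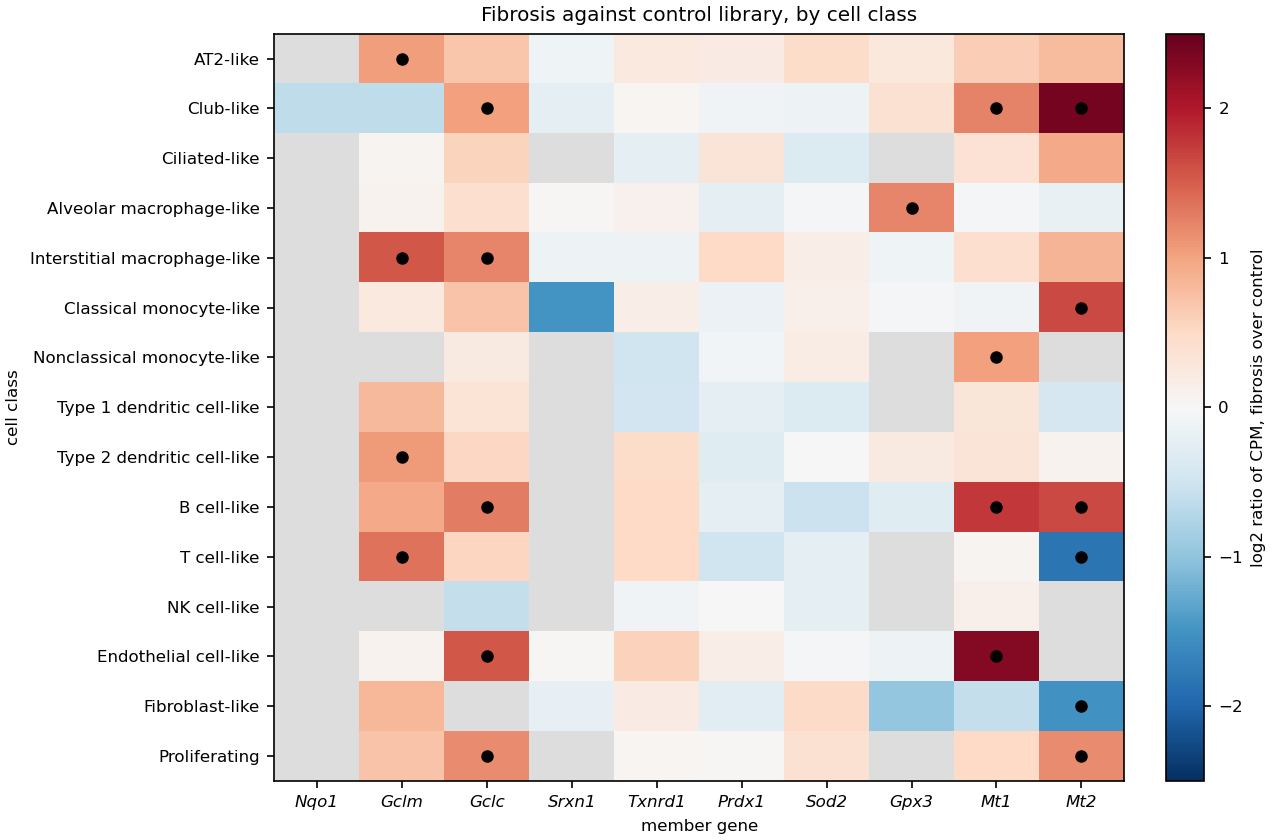
The heat map gives the log2 ratio of CPM, fibrosis over control library, for each member (columns) in each compared class (rows); grey marks pairs under 20 UMIs and a dot marks a call. The dots lie in the columns of Gclm, Gclc, Gpx3, Mt1 and Mt2, and the Prdx1 column stays between -0.50 and 0.49.

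Mt1 and Mt2 lie side by side on chromosome 8 (GRCm38, GENCODE M21; Mt2 at chr8:94172664-94173568 and Mt1 at chr8:94179082-94180327, both on the plus strand and protein coding), and they are shown because they had the most similar levels of any pair of members over classes. The 250 bases before each gene's RefSeq start (GRCm38.p6, plus strand, 5′ to 3′) follow, at chr8:94178839-94179088 for Mt1 and chr8:94172368-94172617 for Mt2. Capitals mark matches to the metal response element core, searched on both strands as TGCACNC or TGCGCNC.
Mt1: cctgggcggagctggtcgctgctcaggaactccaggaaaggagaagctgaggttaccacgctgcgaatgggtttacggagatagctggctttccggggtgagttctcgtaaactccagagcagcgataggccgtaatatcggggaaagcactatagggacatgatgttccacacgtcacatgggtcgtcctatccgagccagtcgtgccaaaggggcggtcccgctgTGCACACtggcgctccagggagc
Mt2: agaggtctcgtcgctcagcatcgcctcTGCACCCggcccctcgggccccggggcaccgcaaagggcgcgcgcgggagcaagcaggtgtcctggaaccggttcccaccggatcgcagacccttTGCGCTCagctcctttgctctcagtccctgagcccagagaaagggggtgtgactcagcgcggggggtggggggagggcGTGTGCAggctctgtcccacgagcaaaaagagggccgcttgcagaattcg
The Mt1 window held 1 match, 23 bases before the start, and the Mt2 window held 3, at 223, 128 and 50 bases. The Mt2 window also held TGACTCAGC, a match to the antioxidant response element core TGACNNNGC, 79 bases before the start; the Mt1 window held none. At least 1 metal response core was found in 21.4% of 32851 RefSeq promoter windows of this length, at least 2 in 5.17%, and the antioxidant core in 10.2%, so single matches are common. The antioxidant core was also matched in the windows of Gclm (134 bases before the start), Prdx1 (133) and 1 of the 3 windows of Txnrd1 (92). These are letter matches only. The GENCODE start of Mt1 (94179082) lies inside its window, and that of Mt2 (94172664) lies past the end of its window. Bases outside the windows were not searched, so these counts do not give all such elements of a gene. Since the 2 windows lie differently to these starts, the counts do not compare Mt1 with Mt2.

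Gclc encodes the catalytic subunit of glutamate-cysteine ligase, and AT2-like cells, the surfactant-making cells of the alveolus, held most of its UMIs: 70.5% of the control library's 3110 and 67.5% of the fibrosis library's 8649. In AT2-like cells Gclc stood at 369 CPM (control) and 595 CPM (fibrosis), a log2 ratio of 0.69 (interval 0.62 to 0.76), which is beyond counting error and under 2-fold. Club-like cells, the secretory cells of the airway, came next in the fibrosis library at 320 CPM, where their interval met that of ciliated-like cells (266 CPM). In the control library ciliated-like cells stood at 179 CPM and club-like cells at 157, with overlapping intervals. After each cell was thinned to 1000 UMIs, 29.1% of control and 39.6% of fibrosis AT2-like cells held a Gclc UMI (73.3% and 85.2% unthinned), against 1.13% and 3.08% of B cell-like cells. Median depths before thinning were 5632 and 5444 UMIs in AT2-like cells and 1829 and 2510 in B cell-like cells.

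Gclc was called higher in 5 of 14 classes with 20 UMIs, and each call was set against the other settings of cells, classes and scaling that gave the class a value. In club-like cells it went from 157 to 320 CPM, a log2 ratio of 1.02 that fell to 0.98 without the richest cell of each library and to 0.67 at resolution 2 of the clustering; it was called in 4 of 11 other settings. In interstitial macrophage-like cells it went from 14.9 to 36.1 CPM on 9 and 52 UMIs (log2 ratio 1.21), called in 6 of 11 other settings with a lowest ratio of 0.65. In B cell-like cells the ratio was 1.28, called in 9 of 11. The endothelial cell-like ratio of 1.55 fell to as low as 0.44 (cells classed one by one from markers) and was called in 4 of 11 other settings. The proliferating cell ratio of 1.18 turned to -0.29 with a common UMI floor and was called in 3 of 8. The ratio was above 0 in 13 of the 14 classes, NK cell-like cells standing at -0.60 on 19 and 6 UMIs. The 2 AT2-like clusters gave similar ratios, 0.75 in the cluster led by Sftpc and 0.70 in the cluster led by Sprr1a, although the second held more Gclc in both libraries (447 and 727 CPM against 295 and 496). In migratory dendritic cell-like cells, too few to compare at 10 control and 83 fibrosis cells, Gclc stood at 37.3 CPM on 2 UMIs and at 273 CPM on 123.

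The Gclc ratios of endothelial cell-like and proliferating cells moved with AT2 marker RNA. The summed level of the 8 AT2 markers, all of them detected, went from 9191 to 29482 CPM in endothelial cell-like cells and from 10015 to 26011 in proliferating cells, with 6807 and 13951 in club-like cells and 2954 and 2666 in B cell-like cells. If each AT2 marker UMI brought Gclc at the ratio of AT2-like cells, it would account for 12.7 of 36 control and 92.8 of 134 fibrosis Gclc UMIs in endothelial cell-like cells. The same sum gave 22.2 of 346 and 145.9 of 1253 in club-like cells, and 7.67 of 23 and 67.7 of 100 in proliferating cells. In B cell-like cells it gave 8.28 of 23 and 6.95 of 29. The endothelial cell-like class joins 2 clusters whose weights differed between the libraries. The cluster led by Ednrb met the endothelial markers, with 149 control and 66 fibrosis cells, and held 13 and 15 Gclc UMIs (log2 ratio 1.05, interval -0.11 to 2.25). The cluster led by Cytl1 and Ccl21a met the lymphatic endothelial markers best, with 173 and 204 cells, and held 23 and 119 (1.63, interval 1.00 to 2.37). Its mean log2 excess over all other cells was 6.32 for lymphatic markers and 5.26 for endothelial markers. The Ednrb cluster stood at 5.10 for endothelial markers. Plvap and Vwf were also among the leading genes of the Cytl1 cluster, so it was not set apart as lymphatic. Of the proliferating clusters, the one led by Cxcl10 and Nusap1 stood at 49.4 and 47.0 CPM of Gclc. The one with Birc5 among its leading genes stood at 36.4 and 219. The first had a mean log2 excess of 2.40 for alveolar macrophage markers and the second 3.19 for NK cell markers. The proliferating class therefore joins cells of more than 1 type. The part of AT2 RNA, or of the mix of cell types, in these ratios was not tested.

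**Figure D2:**
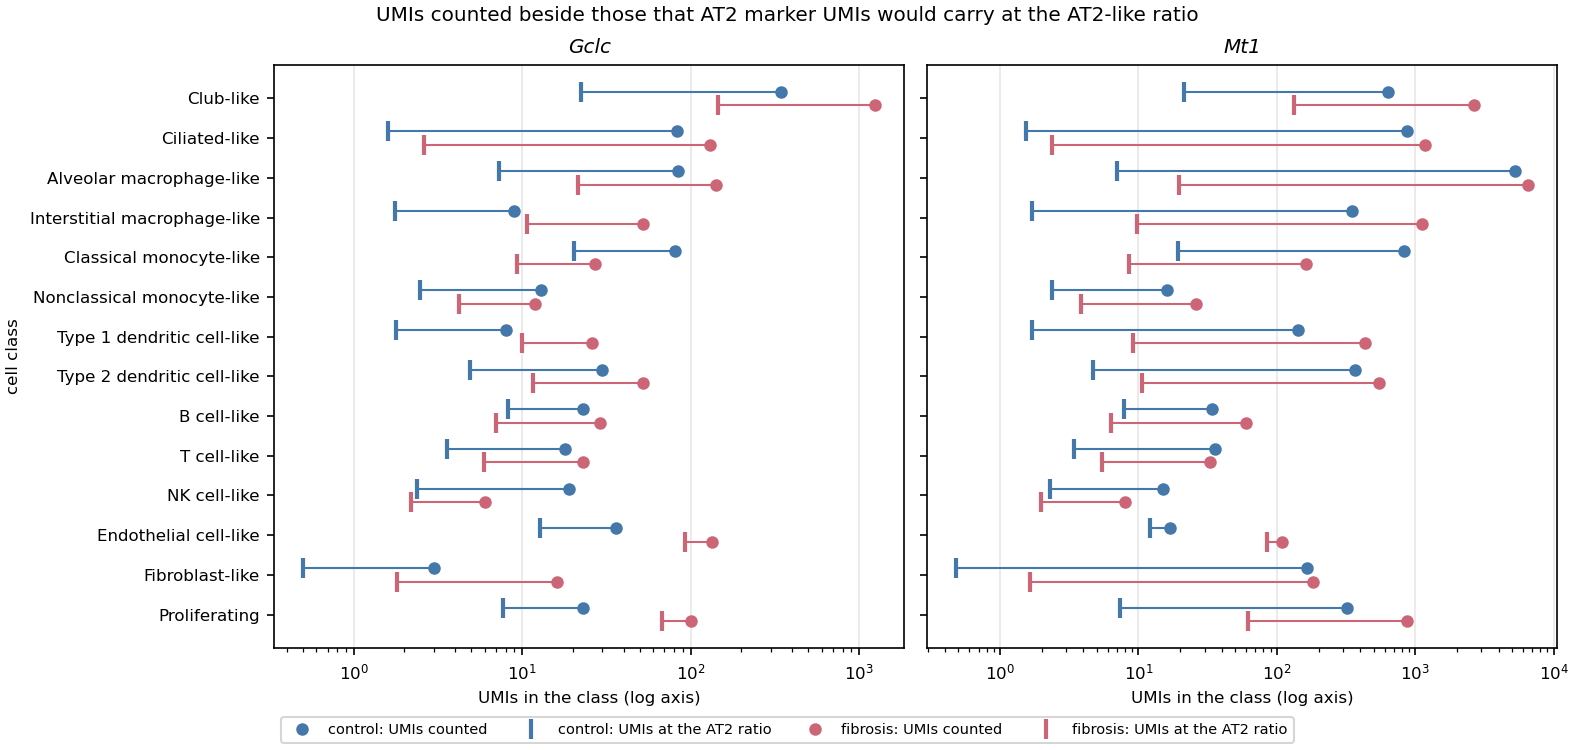
For each compared class other than AT2-like (rows), circles give the UMIs counted for Gclc (left) and Mt1 (right) in the control and fibrosis libraries, and bars give the UMIs that the class's AT2 marker UMIs would carry at the ratio of AT2-like cells (log axis). In endothelial cell-like cells the bars lie near the circles (92.8 of 134 Gclc UMIs in the fibrosis library), while in ciliated-like and macrophage-like classes the circles lie well to the right.

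Gclm encodes the modifier subunit of the same enzyme, and its pattern over classes was not that of Gclc. Ciliated-like cells led in both libraries at 218 and 228 CPM (log2 ratio 0.06, interval -0.34 to 0.46), beyond the intervals of the next class. AT2-like cells, which led for Gclc, stood at 14.2 and 29.3 CPM of Gclm. As a share of Gclm plus Gclc UMIs, which depends on capture of each transcript and is compared here only between classes, Gclm made up 3.69% (control) and 4.70% (fibrosis) in AT2-like cells and 65.1% and 59.7% in alveolar macrophage-like cells. Club-like cells went from 41.8% to 18.5%, intervals 37.8 to 45.9 and 16.6 to 20.5.

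Gclm was called higher in 4 of 13 classes: interstitial macrophage-like (16.5 to 50.6 CPM, log2 ratio 1.56), T cell-like (16.8 to 43.8, 1.36), type 2 dendritic cell-like (13.2 to 27.9, 1.06) and AT2-like (1.05). The first was called in 10 of 11 other settings. The T cell-like ratio was called in 9 of 11 and turned to -0.97 with no doublets removed and -0.67 at a mitochondrial limit of 5%. The type 2 dendritic cell-like ratio, near 2-fold, was called in 3 of 10 (lowest 0.79), and the AT2-like ratio in 6 of 11 (lowest 0.39, with cells thinned). Interstitial macrophages are the resident macrophages of the lung wall, and in that class Gclm and Gclc were both called, with 2.71% of its genes called higher. The AT2-like call rested on 84 and 288 UMIs. In club-like cells Gclm was lower, from 113 to 72.5 CPM (log2 ratio -0.64, interval -0.89 to -0.39), in the class where Gclc was called higher. One control cell of that class held 67 of the 249 Gclm UMIs, and without the richest cell of each library 182 and 274 UMIs gave a ratio of -0.24. The ratio lay between -0.024 and 0.21 under 5 other settings, such as with no doublets removed (0.027). The share of Gclm in club-like cells above holds the same control cell. Reads of Gclm could not be separated here from the overlapping pseudogene Gm6061 on the same strand.

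Txnrd1 encodes the cytosolic thioredoxin reductase. Its highest level was in ciliated-like cells, 201 CPM (control) and 171 CPM (fibrosis), followed by alveolar macrophage-like cells at 85.7 and 92.8. The ratio ran from -0.51 to 0.57 over the 15 classes with a median of 0.11, and only the AT2-like difference was beyond counting error (35.4 and 42.1 CPM, 0.25, interval 0.01 to 0.50). Eid3 lies within Txnrd1 on the same strand.

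Prdx1, a peroxiredoxin that reduces hydrogen peroxide, was led by alveolar macrophage-like cells at 1638 and 1386 CPM, a log2 ratio of -0.24 (interval -0.30 to -0.19). Interstitial macrophage-like cells went the other way, from 413 to 582 CPM (0.49, interval 0.29 to 0.70). These 2 intervals do not overlap, which describes these libraries and was not tested. T cell-like cells stood lowest in ratio at -0.50. Of the 15 ratios, 3 were beyond counting error above 0 and 4 below, and none reached 2-fold. Of the 50-base words in the last 400 bases of its transcripts, 25.7% also occur in pseudogenes such as Gm7204, so some of its reads may have been left uncounted.

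Srxn1, the sulfiredoxin that restores overoxidised peroxiredoxins, was sparse, with 230 control and 365 fibrosis UMIs in all kept cells. Only 7 classes reached 20 UMIs, and their ratios ran from -1.49 (classical monocyte-like, on 20 and 1 UMIs) to 0.03. In alveolar macrophage-like cells it stood at 16.8 and 17.1 CPM, and in AT2-like cells at 7.24 and 6.72. None of the 7 differed beyond counting error. Type 2 dendritic cell-like cells, under 20 UMIs, held 2 and 12 (1.15 and 5.77 CPM).

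Nqo1, a quinone reductase and a commonly used NRF2 target, had most of its UMIs in airway epithelial cells. Club-like cells held 35 of 52 control UMIs and 40 of 70 fibrosis UMIs, and ciliated-like cells held 6 and 5. Endothelial cell-like cells held 1 and 6, unnamed clusters 1 and 7, and no other compared class more than 3. Its level in club-like cells was 15.9 CPM (control) and 10.2 CPM (fibrosis), a log2 ratio of -0.64 whose interval of -1.33 to 0.06 holds 0. Nqo1 UMIs were present in 19.8% of control and 16.6% of fibrosis club-like cells, at median depths of 17193.5 and 18445 UMIs. B cell-like cells held none in 887 and 357 cells, at medians of 1829 and 2510. After thinning, the club-like shares were 0.862% and 2.14%, near the level of a single UMI.

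Sod2, the mitochondrial superoxide dismutase, was also highest in ciliated-like cells, at 402 and 319 CPM (log2 ratio -0.33, interval -0.65 to -0.02). In AT2-like cells it went from 117 to 161 CPM (0.46, interval 0.33 to 0.59) and in B cell-like cells from 71.4 to 49.1 (-0.53). The median over classes was -0.02, and no class reached 2-fold.

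Gpx3 encodes the secreted glutathione peroxidase of plasma. Fibroblast-like cells held 55.1% of the control and 55.2% of the fibrosis library's Gpx3 UMIs, at 3174 and 1632 CPM. That log2 ratio of -0.96 (interval -1.12 to -0.80) was the largest fall of Gpx3 among classes with 20 UMIs and stayed short of 2-fold. Without the richest cell of each library it was -1.04, past 2-fold and called lower. After thinning, 79.2% of 53 control and 62% of 71 fibrosis fibroblast-like cells held a Gpx3 UMI (83.0% and 84.5% unthinned), against 0.564% and 1.12% of B cell-like cells. The fibroblast-like class also met smooth muscle or pericyte markers, with a mean log2 excess over all other cells of 6.52, beside 8.23 for fibroblast markers. Club markers went from 5201 to 23413 CPM in this class. The part of either in the Gpx3 ratio was not tested. Mesothelial cell-like cells, with 33 cells in each library, stood at 272 and 173 CPM. Within the endothelial cell-like class, the cluster led by Ednrb held 165 and 121 CPM of Gpx3 and the cluster led by Cytl1 held 9.89 and 47.1. Gpx3 was called higher only in alveolar macrophage-like cells, from 5.48 to 13 CPM, where 2.36% of genes were called higher. It was called in 7 of 11 other settings and turned to -0.76 at resolution 2. One fibrosis cell held 23 of the 51 UMIs, and without the richest cell of each library the log2 ratio was 0.64 (interval -0.31 to 1.70).

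Mt1 was highest in ciliated-like cells at 1877 CPM (control) and 2407 CPM (fibrosis), followed by alveolar macrophage-like cells at 1691 and 1665, and the intervals of these 2 classes did not overlap in either library. Because alveolar macrophage-like cells are more numerous, they held 45.9% of the control library's Mt1 UMIs and 29.9% of the fibrosis library's. Their level differed by less than counting error between the libraries, with a log2 ratio of -0.02 (interval -0.07 to 0.03), and for Mt2 they stood at 328 and 290 CPM (-0.18, interval -0.30 to -0.05). Interstitial macrophage-like cells went from 576 to 776 CPM of Mt1 (0.43, interval 0.26 to 0.61) and from 39.6 to 72.1 of Mt2 (0.84). An unnamed cluster led by Mmp12, Spp1 and Arg1, with 13 control and 282 fibrosis cells and 9 of 11 alveolar macrophage markers raised, held Mt1 at 889 and 951 CPM.

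The cells of a class did not share Mt1 evenly. After thinning, 55.1% of control and 52.7% of fibrosis alveolar macrophage-like cells held an Mt1 UMI (89.9% and 93.5% unthinned), against 1.92% and 7.56% of B cell-like cells, and the 10% of these macrophages richest in Mt1 held 63.1% of the thinned UMIs in each library. In ciliated-like cells 82.1% and 74.7% held one, and the richest 10% held 28.9% and 39.0%. Mt1 and Mt2 went together cell by cell: among control alveolar macrophage-like cells, 16.3% of those with a thinned Mt1 UMI held an Mt2 UMI, against 0.704% of those without. In the fibrosis library these shares were 17.4% and 1.12%. Prdx1, at 75.4% and 70.1% of the same control cells, did not separate them in this way.

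Both metallothioneins were higher beyond counting error in the fibrosis library in club-like, ciliated-like and AT2-like cells. In club-like cells Mt1 went from 287 to 675 CPM (log2 ratio 1.23, interval 1.11 to 1.36) and Mt2 from 37.2 to 197 CPM (2.40, interval 2.07 to 2.75), both called where 5.83% of the class's genes were. Markers of mucous cells moved with them: Clca1, made by mucous cells, went from 0 UMIs to 2368 (604 CPM), and the mucin gene Muc5b from 62.2 to 260.004 CPM. Their part in the metallothionein ratios was not tested. Alveolar macrophage markers also went from 134 to 531 CPM in this class. At the ratio of alveolar macrophage-like cells they would carry 4.16 of 82 control and 16.1 of 772 fibrosis Mt2 UMIs. AT2 markers, at the ratio of AT2-like cells, would carry 3.96 and 27.8 of these Mt2 UMIs. For Mt1 they would carry 21.3 of 632 control and 132.6 of 2647 fibrosis UMIs. In ciliated-like cells Mt2 went from 320 to 618 CPM (0.95), just under 2-fold, and Mt1 by 0.36. In AT2-like cells the ratios were 0.61 for Mt1 (353 and 540 CPM) and 0.79 for Mt2 (65.7 and 113), and they were 0.64 and 0.63 for Mt1 in the 2 AT2-like clusters. Alveolar macrophage markers were also higher in AT2-like cells, at 90.8 and 299.7 CPM, and at the ratio of alveolar macrophage-like cells they would carry 39.2 of 2096 control and 130.4 of 5305 fibrosis Mt1 UMIs.

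The club-like class is not of 1 kind. Its secretory transcript Scgb1a1 took 45.0% (control) and 35.2% (fibrosis) of the class's UMIs, which lowers the CPM of all its other genes. With the 20 most abundant genes left out of the total the log2 ratio was 2.18 for Mt2 and 1.02 for Mt1. The median log2 ratio of all genes tested in the class was 0.20, the highest of the compared classes, and the Gclc ratio of 1.02 stands beside it. At resolution 2 the club-like class split in 3. The first part, 53 control and 84 fibrosis cells, met the club markers and also carried Foxj1, a ciliated marker (310 and 458 CPM). The second, 49 and 99 cells nearly without Foxj1 (5.90 and 7.52 CPM), met the markers of 2 lineages. The third, 14 and 4 cells, met mast cell or basophil markers, and Scgb1a1 took only 1.06% and 0.231% of its UMIs. Mt2 stood at 50.02 and 247 CPM in the first and at 10.3 and 118 in the second. Mt1 stood at 391 and 912 CPM in the first and at 67.8 and 270 in the second, so both genes were higher in the fibrosis library in each of these larger parts. The third part held no Mt2 UMI and 0 and 37 Mt1 UMIs. Clca1 stood at 0 in the control library in both larger parts, and at 549 and 707 CPM in the fibrosis library. Gclm stood at 95.4 and 93.9 CPM in the first part and at 156 and 38.3 in the second.

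**Figure D3:**
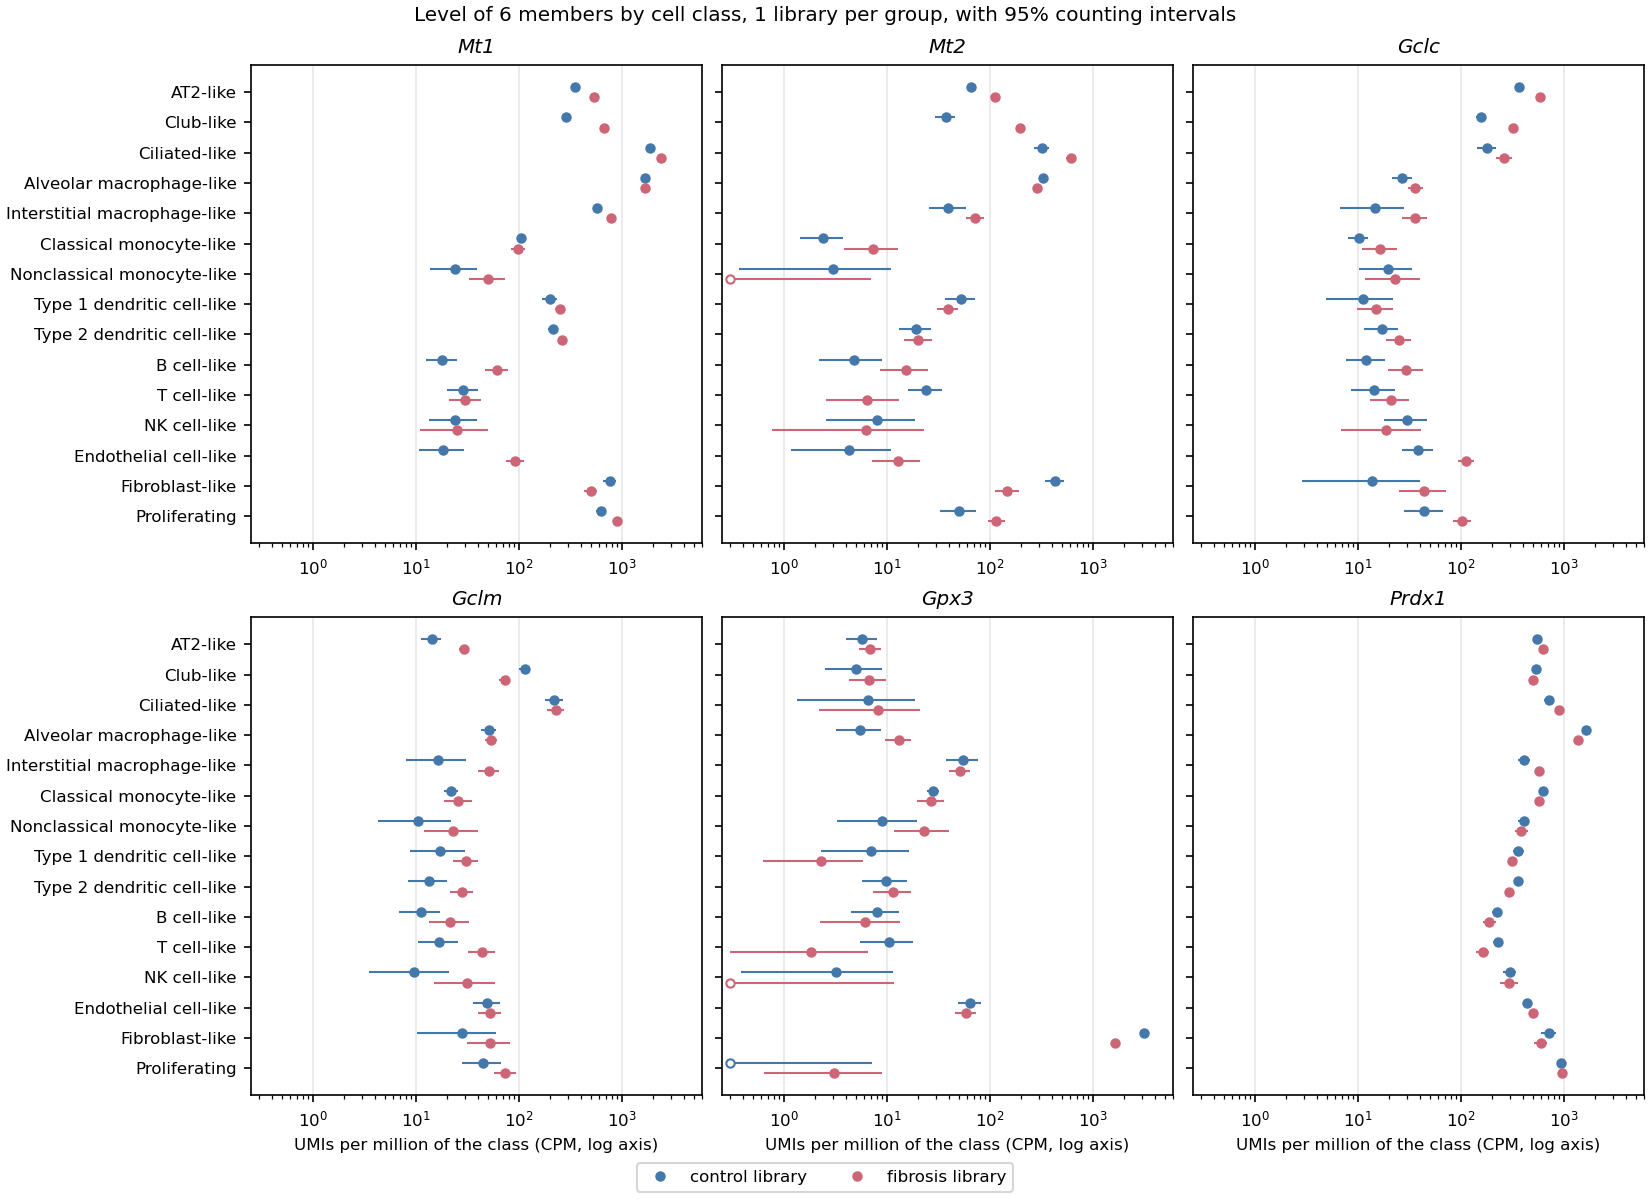
Each panel gives the CPM of 1 member in the compared classes (rows) on a log axis, blue for the control and red for the fibrosis library, with 95% Poisson intervals; open circles at the left edge mark 0 UMIs. Fibroblast-like cells stand apart for Gpx3 (3174 and 1632 CPM), AT2-like cells lead Gclc (369 and 595 CPM), and ciliated-like and alveolar macrophage-like cells lead Mt1.

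Outside the epithelium, Mt1 was called higher in endothelial cell-like (18.2 to 91.6 CPM, log2 ratio 2.30), B cell-like (18.0 to 61.4, 1.76) and nonclassical monocyte-like cells (24.1 to 49.6, 1.03). The endothelial cell-like call was made in 8 of 11 other settings (lowest 0.75, at resolution 2) and the nonclassical monocyte-like call in 5 of 11 (lowest 0.20, with a common UMI floor). In endothelial cell-like cells, AT2 marker UMIs at the ratio of AT2-like cells would carry 12.2 of the 17 control and 84.3 of the 108 fibrosis Mt1 UMIs. Alveolar macrophage markers fell there, from 1745 to 876 CPM, and taken the same way would carry 118.5 and 45.8 UMIs, more than were counted in the control library, so such figures do not estimate a share. The cluster led by Ednrb held 4 and 2 Mt1 UMIs, and the cluster led by Cytl1 held 13 and 106 (log2 ratio 2.26). In B cell-like cells the alveolar macrophage markers, taken the same way, would carry 24.6 of 34 control and 18.9 of 60 fibrosis UMIs, and the AT2 markers 7.92 and 6.32. The share of B cell-like cells with a thinned Mt1 UMI was 1.92% (interval 1.12 to 3.05) in the control and 7.56% (5.04 to 10.8) in the fibrosis library. The part of RNA from other cells in these values was not tested.

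Mt2 was called higher in B cell-like (4.76 to 15.4 CPM on 9 and 15 UMIs), classical monocyte-like (2.39 to 7.36 CPM on 19 and 12 UMIs) and proliferating cells (50.4 to 116 CPM) besides club-like cells. These were called in 6 of 11, 8 of 11 and 3 of 8 other settings, and the proliferating ratio turned to -1.02 with cells classed one by one. In proliferating cells 1 fibrosis cell held 57 of the 113 UMIs, and the log2 ratio without the richest cell of each library was 0.69 instead of 1.18. Alveolar macrophage markers moved with it, from 12312 to 29075 CPM. At the ratio of alveolar macrophage-like cells they would carry 89.6 control and 218.7 fibrosis Mt2 UMIs, above the 26 and 113 counted. The proliferating cluster led by Cxcl10 itself carried alveolar macrophage markers (mean log2 excess 2.40). The part of this mix of cell types in the Mt2 ratio was not tested. Mt2 was called lower in fibroblast-like cells (426 to 148 CPM, log2 ratio -1.52) and T cell-like cells (24.0 to 6.39 CPM, -1.84), where 2.79% and 1.88% of genes were called lower. Both lower calls rested on 1 control cell, which held 75 of 92 UMIs in fibroblast-like cells and 29 of 30 in T cell-like cells. Without the richest cell of each library the log2 ratios were 0.56 on 17 and 43 UMIs (interval -0.26 to 1.49) and 2.30 on 1 and 6 UMIs (interval -0.27 to 8.30), both holding 0. The same control fibroblast-like class had 103 of its 164 Mt1 UMIs in 1 cell, and Mt1 there stood at 759 and 499 CPM. Mt2 overlaps Gm45774 on the opposite strand.

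Mt2 took similar shares of Mt1 plus Mt2 UMIs in the 2 libraries in alveolar macrophage-like cells (16.2% and 14.8%) and AT2-like cells (15.7% and 17.3%). The share was higher in the fibrosis library in club-like cells (11.5% and 22.6%), ciliated-like cells (14.6% and 20.4%) and classical monocyte-like cells (2.23% and 6.94%), with intervals that did not overlap. The classical monocyte-like intervals lay close, at 1.35 to 3.46 and 3.64 to 11.8. That fibrosis share rests on 12 Mt2 UMIs in 10 cells, 3 of the UMIs in 1 cell, and the interval takes no account of such clumping. Type 2 dendritic cell-like cells stood at 8.23% and 7.11% and interstitial macrophage-like cells at 6.43% and 8.5%, below the alveolar macrophage-like share in both libraries.

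**Figure D4:**
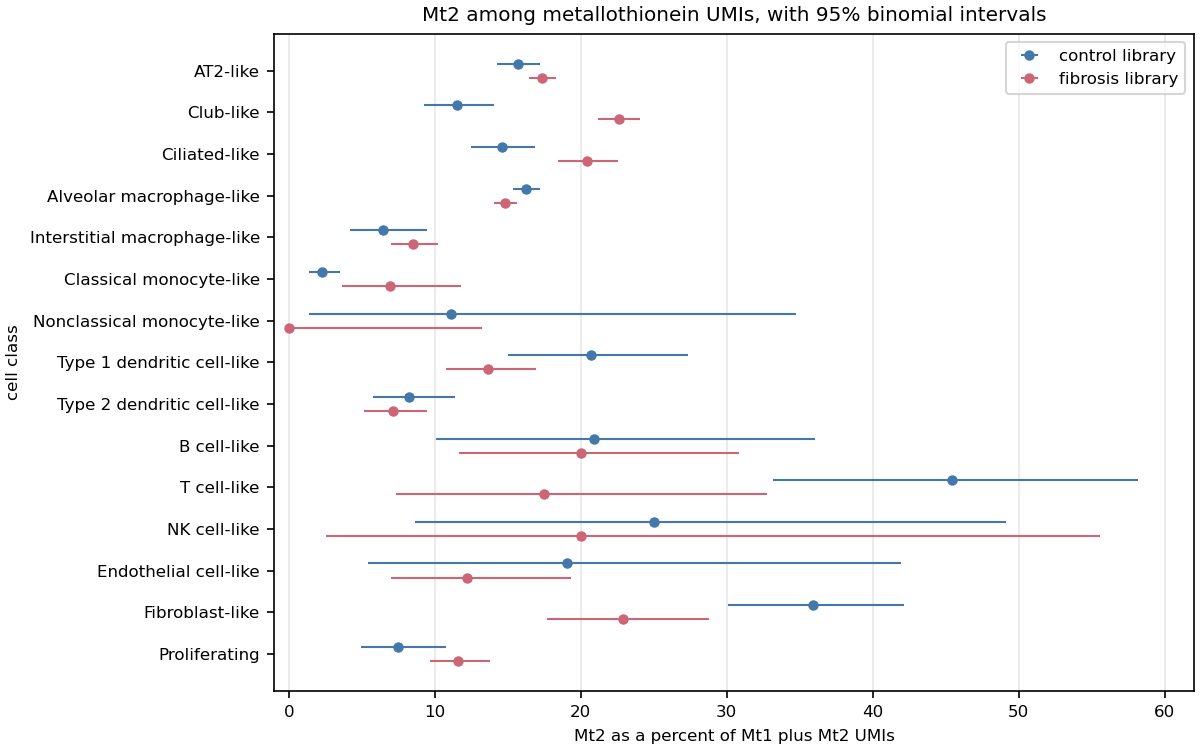
Mt2 as a percent of Mt1 plus Mt2 UMIs (x axis) in each compared class (rows), blue for the control and red for the fibrosis library, with exact 95% binomial intervals. Club-like cells move from 11.5% to 22.6%, while alveolar macrophage-like cells stay at 16.2% and 14.8%; the T cell-like and fibroblast-like control values hold the single cells described above.

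Over the 30 profiles of 15 classes in 2 libraries, Mt1 and Mt2 were each other's most similar gene (Pearson r = 0.88 of log2(CPM + 1), among 11158 genes). The nearest genes to Gclc were Pi4k2b (0.95), Arhgef38 (0.95) and Ank3 (0.95), those to Prdx1 were Txn1 (0.92), Sort1 (0.90) and Klhl9 (0.88), and those to Gpx3 were Pcolce2 (0.92), Inmt (0.89) and Mfap5 (0.88). Gclm was nearest to Spef1 (0.88), Nqo1 to Ccdc33 (0.88), Srxn1 to Reps2 (0.87), Sod2 to Pex7 (0.87) and Txnrd1 to Hdgf (0.86). Among members, Txnrd1 and Sod2 (0.81) and Prdx1 and Mt1 (0.77) followed the metallothionein pair. These coefficients are descriptions over profiles that share libraries and classes.

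Other genes of the pathways gave the following counts by the same rule, where 3.32% of all pairs were called higher and 2.00% lower. Of 221 pairs of 24 other NRF2 target genes and classes, 22 (9.95%) were called higher and 5 (2.26%) lower. Of the 22, 15 were Gstp1, a glutathione transferase, higher in 15 of 15 classes with a median log2 ratio of 2.09. Gstp1 shares 78.3% of the 50-base words of its transcript ends with Gstp2 and Gstp-ps. A shift in nearly every class was also seen for Nme2 (14 of 14, median 3.30) and Pgk1 (13 of 13, 2.31), and among 5272 genes tested in at least 12 classes 52 (0.986%) were called higher in 5 or more, as Gclc was. Me1, which makes NADPH, was called higher in 3 of 6 classes, among them club-like cells (42.7 to 87.0 CPM). The cystine importer gene Slc7a11 was called higher in 2 of 6 classes, type 2 dendritic cell-like (2.87 to 12 CPM) and proliferating cells. Taldo1 was called lower in endothelial cell-like cells (-1.08).

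The 7 NRF2 regulators gave 2 higher (2.30%) and 1 lower call (1.15%) in 87 pairs, where 3.32% and 2.00% of all pairs were called. Nfe2l2, which encodes NRF2, had no call in 15 classes (median 0.03). Maff had both higher calls, in endothelial cell-like and type 2 dendritic cell-like cells (0.57 to 10.6 CPM on 1 and 22 UMIs), and Keap1, the NRF2 inhibitor, was called lower in NK cell-like cells. The 10 other glutathione genes gave 1 higher call in 96 pairs (1.04%), Ggct in endothelial cell-like cells. The 13 other thioredoxin and peroxiredoxin genes gave 1 higher call (Sesn1, alveolar macrophage-like) and 1 lower (Prdx3, NK cell-like) in 159 (0.629% each). The other superoxide dismutases and catalase gave none in 31.

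The zinc handling list held the transporters and sensor that set the zinc that metallothioneins bind, and the metallothionein genes Mt3 and Mt4. Mt3 and Mt4 were tested in no class. The list gave 9 higher and no lower call in 53 pairs (17%), beside the 3.32% of all pairs. The zinc exporter gene Slc30a4 was called higher in 4 of 8 classes, with type 1 dendritic cell-like cells going from 4.24 to 25.9 CPM and alveolar macrophage-like cells from 0.966 to 5.10. The importer gene Slc39a14 was called higher in fibroblast-like (23.1 to 63.1 CPM) and club-like cells (0.908 to 4.59). Slc39a10 was called higher in B cell-like and proliferating cells, and Slc39a8 in endothelial cell-like cells. All calls of this list whose levels are given here rest on few control UMIs. Those with control levels of 4.24 and 23.1 CPM are in classes of only 708248 and 216129 control UMIs. Calls of these and the other listed genes were not set against the other settings used for the members. The glucocorticoid response genes gave 2 higher (2.5%) and 3 lower calls (3.75%) in 80 pairs, where 2.00% of all pairs were called lower. Tsc22d3, a glucocorticoid-induced gene, had a negative ratio in 15 of 15 classes (median -0.73) and was called lower in interstitial macrophage-like (542 to 237 CPM) and endothelial cell-like cells.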

How the data were processed

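The deposited values are raw UMI counts per gene and cell, 1 matrix per library, made by the authors from 10x Genomics 3′ libraries. Cell Ranger 1.3, bcl2fastq and the build mm10 are named in the submitters' processing notes, and the annotation is not given in the sources used here. The members and gene lists were chosen with earlier results of these data known. Cells with under 200 genes or over 10% mitochondrial UMIs were left out. Doublets were scored with scrublet in scanpy 1.11.5: 159 fibrosis cells (2.29%) were removed by its threshold, which marked only 15 control cells (0.187%), so there the 515 top-scoring cells (6.42%, the expected share) were removed. Cells were clustered with 2000 variable genes, 30 components and Leiden resolution 1, with the members and listed genes left out.

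Clusters were named from 26 marker lists, and the thresholds for leaving a cluster unnamed or mixed were set after clusters were seen; clusters with endothelial and lymphatic endothelial markers formed 1 class. UMIs were summed per class and library and scaled to CPM, with exact Poisson intervals. Log2 ratios add 0.5 UMI to each sum, with exact conditional binomial intervals; shares have Clopper-Pearson intervals. No test was made, with 1 library per group. The counting rule was tested on simulated counts, drawn independently for AT2-like and B cell-like cells. Such counts hold no UMIs gathered in 1 cell, so they do not show how the rule behaves there. All 10 members are named in the compared classes, with up to 4 genes of each list called in the most classes and the 3 genes nearest to each member; Nfe2l2, Nme2, Clca1, Muc5b and the clusters singled out were named after their values were seen. Positions are from GENCODE M21 and promoter sequences from RefSeq GRCm38.p6, which matched 9 of 10 members. The alternatives covered doublets, depth, mitochondrial limit, clustering, scaling and call thresholds, and 1, leaving out the richest cell, was added after seeing the data.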

Additional observations from a re-analysis of the deposited data

Results flagged for a closer look

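Mt2 went in opposite directions in 2 classes. In club-like cells it was called higher in the fibrosis library (log2 ratio 2.40), and in T cell-like cells it was called lower (-1.84). The difference between the classes was not tested. The T cell-like value rested on 1 control cell with 29 of the 30 UMIs, and it was 2.30 without the richest cell of each library. The club-like value was 2.40 without such a cell.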

How the results depend on the processing

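Pairs called higher numbered 18, and 11 with no doublets removed, 10 at resolution 2 and 8 with cells thinned to 1000 UMIs. Pairs called lower numbered 2, and 1 with an equal doublet share, at resolution 0.5, with cells weighted equally and without the richest cell, 4 with cell-by-cell classes and 5 at a fold of 1.5. Neither Mt2 call remained with cells weighted equally or without the richest cell, so the 1 lower call there was another pair. Without the richest cell that pair was Gpx3 in fibroblast-like cells. The median ratios of the 10 members moved by less than the standard deviation of their log2 ratios over classes in every alternative run. That deviation ran from 0.26 (Prdx1) to 1.45 (Nqo1), so for the members with a wide spread this is a weak check. Mt1 in B cell-like cells and Mt1 and Mt2 in club-like cells were called in all 11 other settings of cells, classes and scaling. Of 1340 values of a pair under an alternative, 13 reversed a called ratio. Mt2 in T cell-like cells turned to 2.21 with cell-by-cell classes, 0.32 with cells weighted equally, 2.53 when thinned and 2.30 without the richest cell. Mt2 in fibroblast-like cells turned to 0.56 without the richest cell. Mt2 in proliferating cells turned to -1.02 with cell-by-cell classes, and Gpx3 in alveolar macrophage-like cells to -0.76 at resolution 2. Gclm in T cell-like cells turned to -0.97 with no doublets removed and -0.67 at a mitochondrial limit of 5%. Gclc in proliferating cells turned to -0.29 with the same UMI floor, -0.026 at that mitochondrial limit, -0.22 with cell-by-cell classes and -0.19 at resolution 2. Gclc in endothelial cell-like cells kept its direction and was called in 4 of 11 settings, with ratios from 0.44 to 1.57. The cause was not tested. Some alternatives left a class short of cells (ciliated-like, fibroblast-like, proliferating or type 2 dendritic cell-like), and it then gave no value. No paired analysis was possible because each group has 1 library and no test was made. Members under about 20 UMIs in a class, such as Nqo1 and Srxn1, are limited by depth.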

Other observations

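Other lists beside the members gave these counts by the same rule, where 3.32% of all pairs were called higher and 2.00% lower. NF-kB target genes, which respond to inflammatory signals, gave 8 higher and 1 lower call in 103 pairs (7.77% higher). Tnfaip3, a feedback inhibitor of NF-kB, was called higher in 3 of 10 classes, among them type 2 dendritic cell-like cells (6.32 to 20.7 CPM). Icam1, a leukocyte adhesion molecule, was called higher in 2 of 15 classes, club-like (21.8 to 59.2 CPM) and ciliated-like cells (10.8 to 42.7 CPM). Hypoxia and glycolysis genes gave 15 higher (10.9%) and 4 lower (2.90%) calls in 138 pairs, and 13 of the 15 were Pgk1. Genes induced by tissue dissociation gave 4 higher (3.28%) and 3 lower (2.46%) calls in 122 pairs, near the shares of all pairs. The heat shock genes Hspa1a and Hspa1b each went opposite ways in AT2-like and alveolar macrophage-like cells. Hspa1a was called higher in AT2-like cells (4.38 to 14.2 CPM) and lower in alveolar macrophage-like cells (18.4 to 3.82 CPM), and Hspa1b likewise (log2 ratios 1.23 and -2.53). These differences between classes were not tested.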
